A study of Homo sapiens with 18 samples.

Results

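Histone lysine and arginine modifying enzymes place or remove methyl and acetyl groups on histone tails. A gene of the table was a member if its symbol began with KDM, JMJD, SETD, SETDB, MLL, EHMT, EZH, SUV39H, SUV420H, HDAC, SIRT or PRMT, or was WHSC1, NSD1, DOT1L, EP300 or CREBBP. This gave 66 of 13141 genes. The prefix MLL also took in 4 fusion partners of MLL (MLLT3, MLLT6, MLLT10 and MLLT11), which are not methyltransferases, leaving 62 enzymes and enzyme relatives. HDAC7 and HDAC7A are 2 entries of 1 gene, and older symbols are kept as the table writes them.

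Transcripts were measured with Illumina HumanHT-12 V4 arrays in 786-O, a clear cell renal carcinoma line that lacks VHL, the ubiquitin ligase subunit that marks the hypoxia-inducible factors for degradation. VHL+/+ cells are 786-O cells with VHL put back, and VHL-/- cells are without it. Each background carried a scramble control shRNA (SCR), PBRM1 shRNA or KDM5C shRNA, expressed stably, which made 6 groups of 3 arrays. Per the study's methods, each target was suppressed with a single shRNA sequence on these arrays, so a result of 1 shRNA against SCR holds for that sequence in 1 cell line. PBRM1 is a subunit of the PBAF chromatin remodeller, and KDM5C is a demethylase of lysine 4 of histone H3 (H3K4). Nothing in the labels says that the replicates came from separate cultures, so p-values measure the spread between these arrays, which may be technical.

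Methylation of H3K4 marks promoters and enhancers of active genes and is set by the MLL (KMT2) and SETD1 enzymes and removed by the KDM5 and LSD1 families. Methylation of H3K9 and H3K27 goes with silent chromatin, and acetylation, written by p300 and CBP and erased by the HDACs and sirtuins, goes with active chromatin. Several genes of this class, KDM5C among them, are recurrently mutated in clear cell renal carcinoma. The comparisons below address whether other members of the class were expressed at another level when PBRM1 or KDM5C was suppressed, as would be seen if a related enzyme were raised in place of a lost one.

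The labels place 12 arrays on chip 1 (replicates 1 and 2 of each group) and 6 on chip 2 (replicate 3), and 11 members passed a test between the chips (limma), beside 23.8% of all genes. The chip was therefore a term in the fits reported here, and differences within each chip are given beside the calls. PBRM1 mRNA was lower by 0.06 (95% interval -0.32 to 0.19) and 0.15 (-0.40 to 0.11) on the log2 scale with PBRM1 shRNA in VHL-/- and VHL+/+ cells, and neither difference passed the test (limma, adjusted p = 0.864 and 0.639). KDM5C mRNA is not analysed here, so on these arrays the labels alone identify both suppressions. Separately from the arrays, the study made immunoblots of 786-O cells carrying shRNAs against PBRM1 or KDM5C. VHL mRNA was 0.08 higher in VHL+/+ than in VHL-/- cells with SCR (-0.11 to 0.26, limma, adjusted p = 0.766). Of 8 renal carcinoma markers 6 were measured (PAX8, CDH6, VIM, KRT8, KRT18 and CDH2), while the measured endothelial and fibroblast markers (PECAM1, COL1A1 and COL3A1) lay in the dimmest 25% of the table and the leukocyte marker CD68 did not.

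JMJD8 and SETDB2, the members with the highest and the lowest difference after PBRM1 suppression in VHL-/- cells, each have 1 transcription start in the RefSeq promoter table of GRCh38.p14. The 250 bases before each start are shown to give the promoters of these members, with JMJD8 at chr16:684335-684584 (minus strand) and SETDB2 at chr13:49444024-49444273 (plus strand). Capitals mark the GC box GGGCGG on either strand, the letters bound by SP family factors.
JMJD8: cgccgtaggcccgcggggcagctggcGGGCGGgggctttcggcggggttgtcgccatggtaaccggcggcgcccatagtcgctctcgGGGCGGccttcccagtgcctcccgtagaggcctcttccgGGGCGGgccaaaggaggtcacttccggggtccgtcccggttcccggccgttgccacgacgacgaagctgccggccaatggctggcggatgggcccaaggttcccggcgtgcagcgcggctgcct
SETDB2: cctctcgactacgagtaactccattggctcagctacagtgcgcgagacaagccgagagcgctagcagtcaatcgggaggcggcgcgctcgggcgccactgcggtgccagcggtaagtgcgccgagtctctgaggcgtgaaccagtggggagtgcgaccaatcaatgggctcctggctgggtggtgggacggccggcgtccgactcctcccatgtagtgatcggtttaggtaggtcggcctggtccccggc
JMJD8 held 3 GC boxes and SETDB2 held 0, and at least 1 was held by 42.6% of 35116 promoters in the table and by 70.7% of the 92 promoters of members. Neither window held the hypoxia response element core, spelled ACGTG and searched on both strands, which 18.5% of all promoters held. These are matches of letters and not sites of binding.

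The shRNAs left most of the class near its SCR level. Over the 4 comparisons of an shRNA with SCR, 12 of 264 member tests passed (limma, adjusted p under 0.05 over all genes), and they came from 7 members: JMJD8, EZH2, JMJD1C, SETDB2, KDM5B, MLL and EP300. The other 59 members passed in none. In VHL-/- cells PBRM1 shRNA moved 4 members, of which JMJD8 and EZH2 rose and JMJD1C and SETDB2 fell, where 5.43% of all genes passed. In VHL+/+ cells PBRM1 shRNA moved JMJD8 alone, where 2.49% of all genes passed. KDM5C shRNA moved 2 members in VHL-/- cells, JMJD1C and SETDB2, both lower, where 4.78% of all genes passed. In VHL+/+ cells KDM5C shRNA moved 5 members, with JMJD8 higher and EP300, JMJD1C, KDM5B and MLL lower, where 4.19% of all genes passed. The share of members that passed was 6.06%, 1.52%, 3.03% and 7.58% in the same order, which is near the share of all genes in each. Both shRNAs of a background were compared with the same SCR arrays, so their calls are not independent of each other. Without the chip term 2 of the 12 calls passed, JMJD8 and EP300 with KDM5C shRNA in VHL+/+ cells.

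The sizes were small. Only JMJD8 with KDM5C shRNA in VHL+/+ cells reached 1.5-fold, where 1.14% of all genes passed and reached it, and the shares in the other 3 comparisons were 1.81% and 0.944% with PBRM1 shRNA in VHL-/- and VHL+/+ cells and 1.46% with KDM5C shRNA in VHL-/- cells, with 0 members. The median log2 fold change of the members was 0.01, -0.01, -0.01 and 0.00 for PBRM1 shRNA in VHL-/- and VHL+/+ cells and KDM5C shRNA in VHL-/- and VHL+/+ cells, against 0.00 for all genes in each. The median size of a difference, without its sign, was 0.08, 0.08, 0.05 and 0.10 for the members and 0.09, 0.09, 0.09 and 0.10 for all genes. The single-gene 95% intervals, which are not adjusted for the number of members, lay wholly within a 1.5-fold rise or fall for 66, 64, 63 and 63 of the 66 members. The members whose intervals reached past it were HDAC3 and JMJD8 with PBRM1 shRNA in VHL+/+ cells, HDAC3, SETD8 and SETDB2 with KDM5C shRNA in VHL-/- cells, and JMJD8, KDM5B and SETD8 with KDM5C shRNA in VHL+/+ cells. For a member that missed the test, a change as large as its own interval allows was thus not excluded. Larger changes of the transcript were not excluded by these intervals either, since they bound the measured signal. Of the 66 members, 16 read close to background, where a narrow interval says little. PBRM1 mRNA, measured with the shRNA against it, also had intervals within 1.5-fold in both backgrounds. An interval within 1.5-fold therefore does not by itself show an unchanged transcript.

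**Figure D1:**
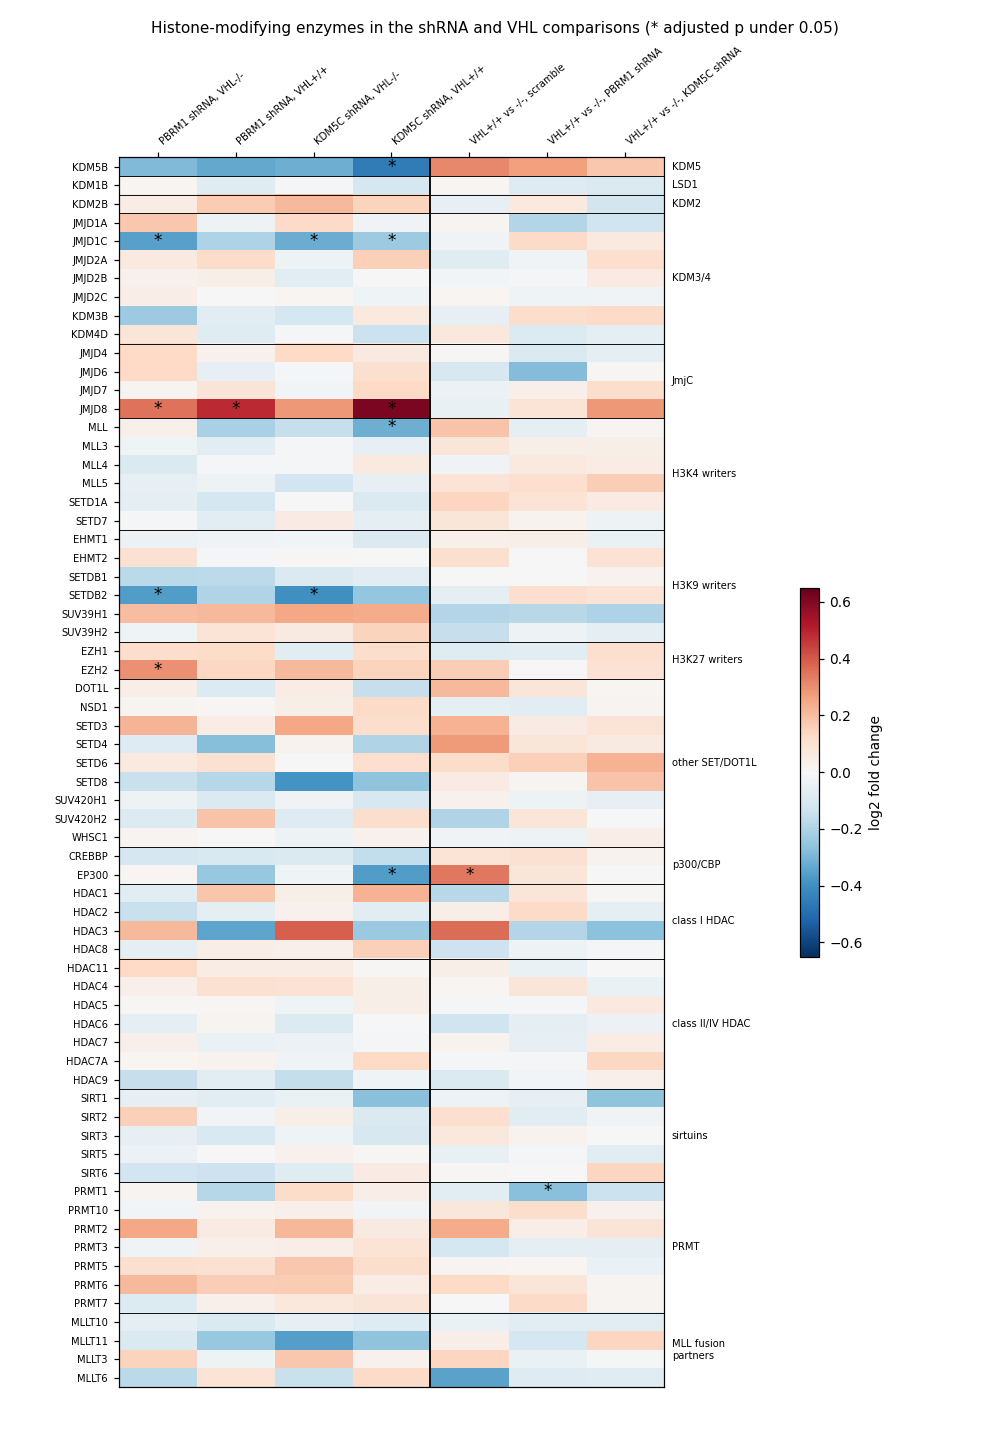
Log2 fold change of each of the 66 members (lines, grouped by role) in the 4 shRNA comparisons with SCR and the 3 comparisons of VHL+/+ with VHL-/- cells (columns), from limma with chip as a term. Red is higher and blue lower, an asterisk marks adjusted p under 0.05, and most fields are pale, with JMJD8 the darkest at 0.61.

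**Figure D2:**
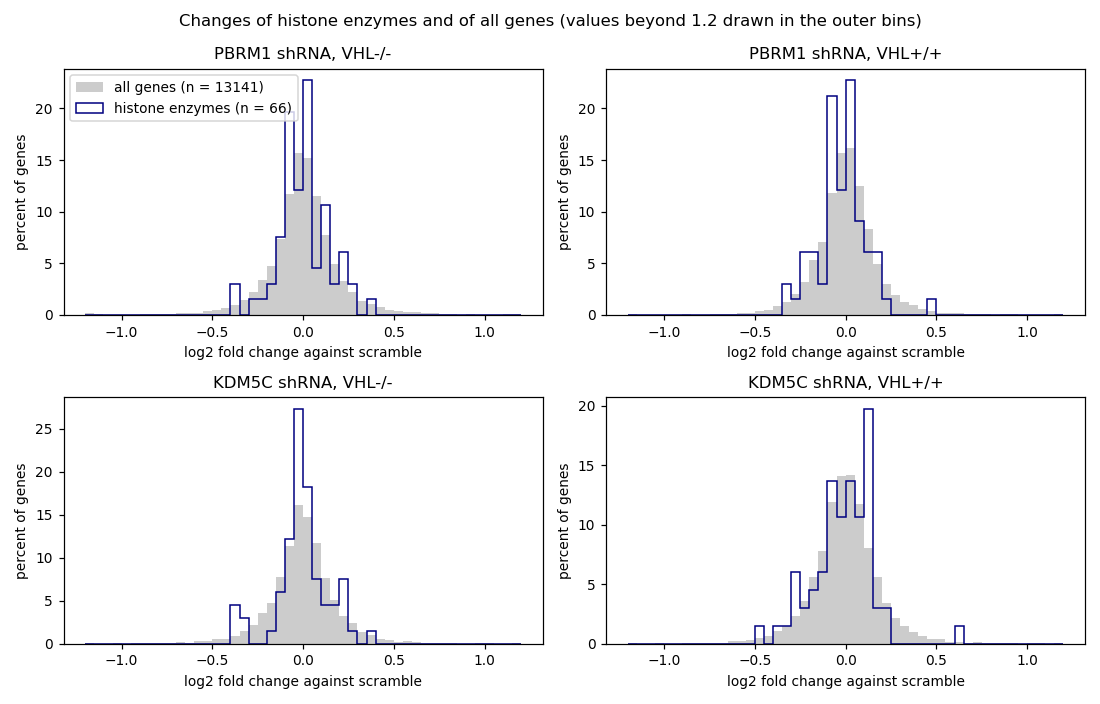
Share of genes, in percent, by log2 fold change against SCR for all 13141 genes (grey) and the 66 members (blue outline) in the 4 shRNA comparisons. Member values ran from -0.46 to 0.61 and centred on 0 as all genes did.

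The H3K4 enzymes hold the nearest relatives of KDM5C. KDM5B, a demethylase of the same family, was lower and not higher in all 4 shRNA groups, and passed once. In VHL+/+ cells its log2 signal was 8.76, 8.75 and 9.42 with SCR, 8.38, 8.46 and 9.09 with PBRM1 shRNA and 8.41, 8.40 and 8.75 with KDM5C shRNA, the last value of each trio being the chip 2 array. On each chip every shRNA array was below the SCR arrays, though across chips the groups overlapped, since the chip 2 arrays read higher. KDM5B fell by 0.46 with KDM5C shRNA (SE 0.10, 95% interval -0.67 to -0.24, adjusted p = 0.0187 by limma), by 0.35 within chip 1 and by 0.67 on chip 2. With PBRM1 shRNA the log2 fold change was -0.33 (-0.55 to -0.12, adjusted p = 0.107 by limma). In VHL-/- cells KDM5B was 8.53, 8.50 and 8.96 with SCR, 8.19, 8.48 and 8.47 with PBRM1 shRNA and 8.14, 8.28 and 8.62 with KDM5C shRNA. The PBRM1 shRNA arrays were below the SCR arrays, and the KDM5C shRNA arrays overlapped them. The log2 fold changes there were -0.29 and -0.32, with adjusted p = 0.133 and 0.0966 by limma. The call of KDM5B was lost without VHL+/+ SCR replicate 1 or 3 or VHL+/+ KDM5C shRNA replicate 2 or 3, where adjusted p reached 0.103.

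KDM5A, the family member that the table calls JARID1A and the symbol rule does not take, did not pass in any of the 4 comparisons. Its log2 fold changes were 0.04 (-0.24 to 0.32) and -0.19 (-0.47 to 0.09) with PBRM1 shRNA and 0.25 (-0.04 to 0.53) and -0.06 (-0.34 to 0.23) with KDM5C shRNA, in VHL-/- and VHL+/+ cells. The flavin-dependent H3K4 demethylase KDM1B lay between -0.12 and 0.01, and its relative LSD1 (AOF2 in the table, outside the rule) was no further than 0.12 from SCR, with no call in either.

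Among the H3K4 methyltransferases MLL passed once. MLL (KMT2A), which keeps HOX and other developmental genes active, read 7.87, 7.87 and 7.55 with SCR in VHL+/+ cells and 7.39, 7.65 and 7.29 with KDM5C shRNA. Within each chip the KDM5C shRNA arrays were below the SCR arrays, and across chips the second KDM5C shRNA array lay above the chip 2 SCR array. MLL fell by 0.32 (SE 0.08, 95% interval -0.49 to -0.14, adjusted p = 0.0431 by limma), by 0.35 within chip 1 and by 0.25 on chip 2. It was 7.70, 7.45 and 7.50 with PBRM1 shRNA in these cells, a log2 fold change of -0.21 with adjusted p = 0.219. In VHL-/- cells it was 7.61, 7.61 and 7.52 with SCR, 7.67, 7.60 and 7.57 with PBRM1 shRNA and 7.50, 7.46 and 7.34 with KDM5C shRNA, and neither shRNA passed. The call in VHL+/+ cells passed in 10 of the 18 fits that left out 1 array. It was lost without VHL+/+ SCR replicate 1 or 2, VHL+/+ KDM5C shRNA replicate 1 or 3, any VHL-/- SCR array or VHL-/- PBRM1 shRNA replicate 1, with adjusted p up to 0.168.

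The other H3K4 methyltransferases and their relative MLL5 stayed close to SCR, and none passed in any of the 4 comparisons. MLL3 (KMT2C), an enhancer methyltransferase, read 7.06, 6.93 and 6.98 with SCR, 6.96, 7.03 and 6.88 with PBRM1 shRNA and 6.98, 7.00 and 6.95 with KDM5C shRNA in VHL-/- cells. In VHL+/+ cells the readings were 7.08, 7.04 and 7.09 with SCR, 7.03, 7.02 and 6.94 with PBRM1 shRNA and 6.98, 7.09 and 6.98 with KDM5C shRNA. Its log2 fold changes lay between -0.07 and -0.01, with every 95% interval between -0.20 and 0.12. The PBRM1 shRNA arrays of VHL+/+ cells lay just below the SCR arrays, and the other groups overlapped.

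MLL4, a symbol used for both KMT2B and KMT2D, read 7.46, 7.39 and 7.62 with SCR, 7.39, 7.55 and 7.24 with PBRM1 shRNA and 7.54, 7.51 and 7.39 with KDM5C shRNA in VHL-/- cells. The VHL+/+ arrays read 7.40, 7.60 and 7.38 with SCR, 7.40, 7.63 and 7.34 with PBRM1 shRNA and 7.54, 7.62 and 7.42 with KDM5C shRNA. The groups overlapped and differed by -0.09 to 0.06 on the log2 scale, with intervals between -0.29 and 0.26.

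MLL5 (KMT2E), a SET-domain relative, was at 7.32, 7.23 and 7.24 with SCR, 7.27, 7.17 and 7.19 with PBRM1 shRNA and 7.11, 7.01 and 7.29 with KDM5C shRNA in VHL-/- cells. The VHL+/+ arrays stood at 7.29, 7.40 and 7.36 with SCR, 7.34, 7.22 and 7.40 with PBRM1 shRNA and 7.38, 7.34 and 7.18 with KDM5C shRNA. The groups overlapped, and the log2 fold changes lay between -0.13 and -0.03, with intervals between -0.30 and 0.14.

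SETD1A, the catalytic subunit of a COMPASS complex, gave 8.22, 8.09 and 8.10 with SCR, 8.09, 7.94 and 8.19 with PBRM1 shRNA and 7.82, 8.38 and 8.20 with KDM5C shRNA in VHL-/- cells. In VHL+/+ cells it gave 8.29, 8.28 and 8.26 with SCR, 8.21, 8.12 and 8.16 with PBRM1 shRNA and 8.05, 8.31 and 8.19 with KDM5C shRNA. In VHL+/+ cells the PBRM1 shRNA arrays were below the SCR arrays, and the other groups overlapped. The log2 fold changes lay between -0.11 and 0.00, with intervals between -0.35 and 0.24, and those of SETD7, which methylates H3K4 and non-histone proteins, between -0.07 and 0.05.

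**Figure D3:**
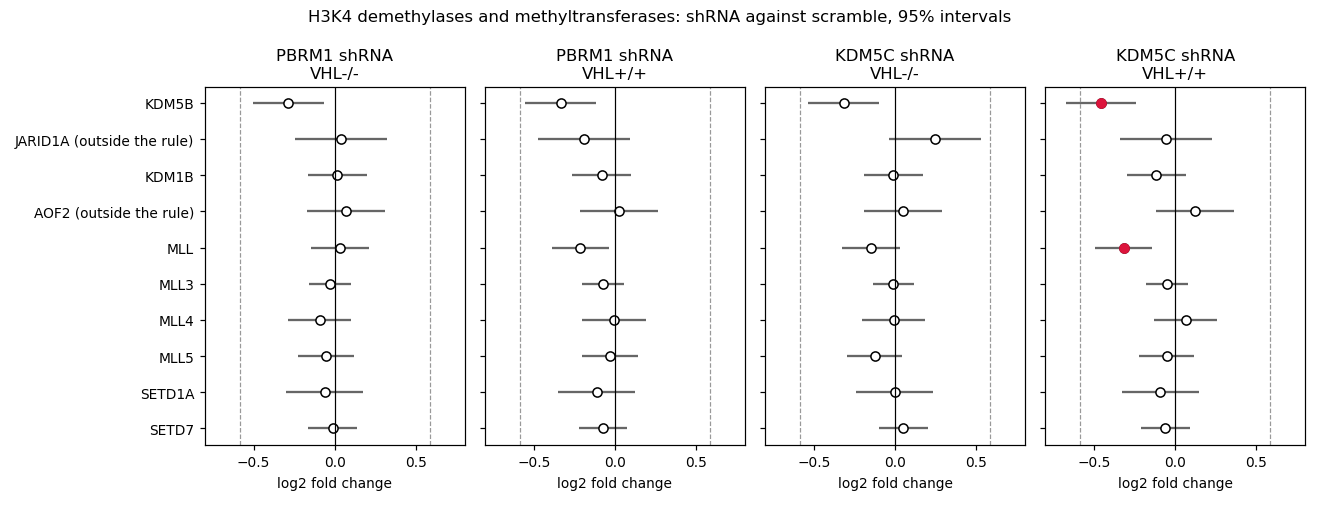
Log2 fold change against SCR (horizontal axis) with its 95% interval for 10 genes in the 4 shRNA comparisons, n = 3 arrays a group. The genes are H3K4 demethylases and methyltransferases, with the SET-domain relative MLL5. Red points passed at adjusted p under 0.05, dashed lines mark 1.5-fold, and only KDM5B and MLL with KDM5C shRNA in VHL+/+ cells are red, both lower.

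JMJD8 was higher in all 4 shRNA comparisons, passed in 3 of them, and had the highest log2 fold change of the class in each of those 3. It is a JmjC-domain protein found in the endoplasmic reticulum, and no histone demethylase activity is established for it. In VHL-/- cells it read 10.55, 10.44 and 10.75 with SCR, 10.99, 10.88 and 10.93 with PBRM1 shRNA and 10.70, 10.80 and 11.08 with KDM5C shRNA. The PBRM1 shRNA arrays were all above the SCR arrays, and 1 KDM5C shRNA array fell below the chip 2 SCR array. The rise with PBRM1 shRNA was 0.35 (SE 0.08, 95% interval 0.19 to 0.52, adjusted p = 0.0124 by limma), 0.44 within chip 1 and 0.18 on chip 2. With KDM5C shRNA the log2 fold change was 0.28 (0.11 to 0.45, adjusted p = 0.0502 by limma), which just missed the threshold. In VHL+/+ cells JMJD8 read 10.46, 10.37 and 10.77 with SCR, 10.89, 10.92 and 11.25 with PBRM1 shRNA and 11.04, 11.03 and 11.36 with KDM5C shRNA, and all arrays of both shRNAs were above all SCR arrays. It rose by 0.49 with PBRM1 shRNA (SE 0.08, 0.32 to 0.65, adjusted p = 0.00253 by limma) and by 0.61 with KDM5C shRNA (SE 0.08, 0.45 to 0.78, adjusted p = 0.000348 by limma), the latter 1.53-fold. Within chip 1 and on chip 2 the rises were 0.49 and 0.48 with PBRM1 shRNA and 0.63 and 0.58 with KDM5C shRNA.

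Both rises of JMJD8 in VHL+/+ cells passed in all 18 fits that left out 1 array. The rise with PBRM1 shRNA in VHL-/- cells was lost without replicate 2 of SCR or replicate 1 or 2 of PBRM1 shRNA in that background, with adjusted p up to 0.0765 by limma. The rise with KDM5C shRNA in VHL+/+ cells also passed with no chip term (adjusted p = 0.0327 by limma). The difference of the KDM5C shRNA effect between the backgrounds, VHL-/- minus VHL+/+, was -0.33 for JMJD8 (-0.57 to -0.10, adjusted p = 0.443 by limma), which did not pass. The other proteins of this group, the JmjC hydroxylases JMJD4, JMJD6 and JMJD7, did not pass with either shRNA.

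JMJD1C was lower in all 4 comparisons and passed in 3 of them. It is a JmjC protein of the KDM3 family, whose members take methyl groups from H3K9. In VHL-/- cells it read 8.97, 8.96 and 9.08 with SCR, 8.60, 8.55 and 8.81 with PBRM1 shRNA and 8.63, 8.56 and 8.85 with KDM5C shRNA. All arrays of both shRNAs were below all SCR arrays. The falls were by 0.35 with PBRM1 shRNA (SE 0.06, 95% interval -0.48 to -0.22, adjusted p = 0.00297 by limma) and by 0.32 with KDM5C shRNA (SE 0.06, -0.46 to -0.19, adjusted p = 0.00546 by limma), and both passed in all 18 fits that left out 1 array. Within chip 1 and on chip 2 the log2 fold changes were -0.39 and -0.27 with PBRM1 shRNA and -0.37 and -0.23 with KDM5C shRNA. In VHL+/+ cells JMJD1C read 8.89, 8.89 and 9.15 with SCR, 8.67, 8.78 and 8.88 with PBRM1 shRNA and 8.64, 8.75 and 8.84 with KDM5C shRNA, again with no overlap. There it fell by 0.23 with KDM5C shRNA (-0.37 to -0.10, adjusted p = 0.0464 by limma), by 0.19 within chip 1 and by 0.31 on chip 2, a call that passed in 3 of the 18 fits that left out 1 array, namely those without VHL-/- PBRM1 shRNA replicate 3 or VHL-/- KDM5C shRNA replicate 2 or 3. Without each of the other 15 arrays adjusted p reached up to 0.162. With PBRM1 shRNA the log2 fold change was -0.20 (-0.33 to -0.07, adjusted p = 0.112 by limma). None of the other 6 members of the KDM3 and KDM4 families (JMJD1A, JMJD2A, JMJD2B, JMJD2C, KDM3B and KDM4D) passed with either shRNA, and neither did KDM2B, an H3K36 demethylase that binds CpG islands.

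SETDB2, a SET-domain relative of the H3K9 methyltransferase SETDB1, fell with both shRNAs in VHL-/- cells. It read 8.11, 8.20 and 8.00 with SCR, 7.73, 7.80 and 7.70 with PBRM1 shRNA and 7.68, 7.72 and 7.72 with KDM5C shRNA. Every shRNA array was below every SCR array. SETDB2 fell by 0.36 with PBRM1 shRNA (SE 0.10, 95% interval -0.57 to -0.15, adjusted p = 0.0450 by limma) and by 0.40 with KDM5C shRNA (SE 0.10, -0.61 to -0.18, adjusted p = 0.0295 by limma). Within chip 1 and on chip 2 the log2 fold changes were -0.39 and -0.30 with PBRM1 shRNA and -0.45 and -0.28 with KDM5C shRNA. In VHL+/+ cells it was 7.86, 8.11 and 8.17 with SCR, 7.97, 7.74 and 7.84 with PBRM1 shRNA and 7.59, 7.97 and 7.82 with KDM5C shRNA, where the groups overlapped and neither shRNA passed (log2 fold changes -0.19 and -0.25, adjusted p = 0.381 and 0.187 by limma). The call with PBRM1 shRNA passed in 7 of 18 fits that left out 1 array, and was lost without each array of VHL-/- SCR and VHL-/- PBRM1 shRNA, VHL-/- KDM5C shRNA replicate 1 or 2, VHL+/+ SCR replicate 2 and replicate 3 of both VHL+/+ shRNA groups, with adjusted p up to 0.187. The call with KDM5C shRNA passed in 13 of 18, and was lost without VHL-/- SCR replicate 1 or 2 or any VHL-/- KDM5C shRNA array, with adjusted p up to 0.138. The other H3K9 methyltransferases, EHMT1 (GLP), EHMT2 (G9a), SETDB1, SUV39H1 and SUV39H2, did not pass in any of the 4 comparisons.

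EZH2, the catalytic subunit of Polycomb repressive complex 2 that methylates H3K27, rose with PBRM1 shRNA in VHL-/- cells. It read 8.33, 8.37 and 8.34 with SCR, 8.59, 8.66 and 8.67 with PBRM1 shRNA and 8.52, 8.61 and 8.53 with KDM5C shRNA, so that the SCR arrays lay below all others of this background. The rise with PBRM1 shRNA was 0.30 (SE 0.08, 95% interval 0.13 to 0.47, adjusted p = 0.0370 by limma), 0.28 within chip 1 and 0.34 on chip 2. It was lost without each of the 6 arrays of the groups compared, with adjusted p up to 0.131. With KDM5C shRNA the log2 fold change was 0.21 (0.04 to 0.38, adjusted p = 0.166 by limma). In VHL+/+ cells EZH2 read 8.66, 8.49 and 8.37 with SCR, 8.82, 8.62 and 8.49 with PBRM1 shRNA and 8.73, 8.60 and 8.62 with KDM5C shRNA, with overlap and with log2 fold changes of 0.14 and 0.14 that did not pass. Its alternative EZH1 did not pass with either shRNA.

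EP300, which encodes the acetyltransferase p300, was the 1 member to pass both in an shRNA comparison and with VHL. The VHL+/+ arrays read 8.07, 7.86 and 7.90 with SCR, 7.70, 7.73 and 7.65 with PBRM1 shRNA and 7.58, 7.63 and 7.52 with KDM5C shRNA, and all shRNA arrays were below all SCR arrays. In VHL-/- cells it read 7.63, 7.53 and 7.64 with SCR, 7.53, 7.55 and 7.77 with PBRM1 shRNA and 7.71, 7.53 and 7.49 with KDM5C shRNA, which overlapped throughout. EP300 fell by 0.36 with KDM5C shRNA in VHL+/+ cells (SE 0.08, 95% interval -0.54 to -0.19, adjusted p = 0.0200 by limma), by 0.36 within chip 1 and by 0.38 on chip 2. With SCR it was 0.34 higher in VHL+/+ than in VHL-/- cells (SE 0.08, 0.17 to 0.52, adjusted p = 0.0331 by limma), 0.38 within chip 1 and 0.26 on chip 2, and it was the only member to pass there, where 3.2% of all genes passed.

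Both of these EP300 comparisons used the VHL+/+ SCR arrays. The first was lost without VHL+/+ SCR replicate 1 or 3 or VHL+/+ KDM5C shRNA replicate 1 or 3 (adjusted p up to 0.117), and the second without VHL+/+ SCR replicate 1 or 3 or any VHL-/- SCR array (up to 0.184). The difference of the KDM5C shRNA effect between backgrounds was 0.34 (0.09 to 0.59, adjusted p = 0.471 by limma) and did not pass. CREBBP, the paralog of EP300, lay between -0.16 and -0.10 in the 4 shRNA comparisons with no call.

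**Figure D4:**
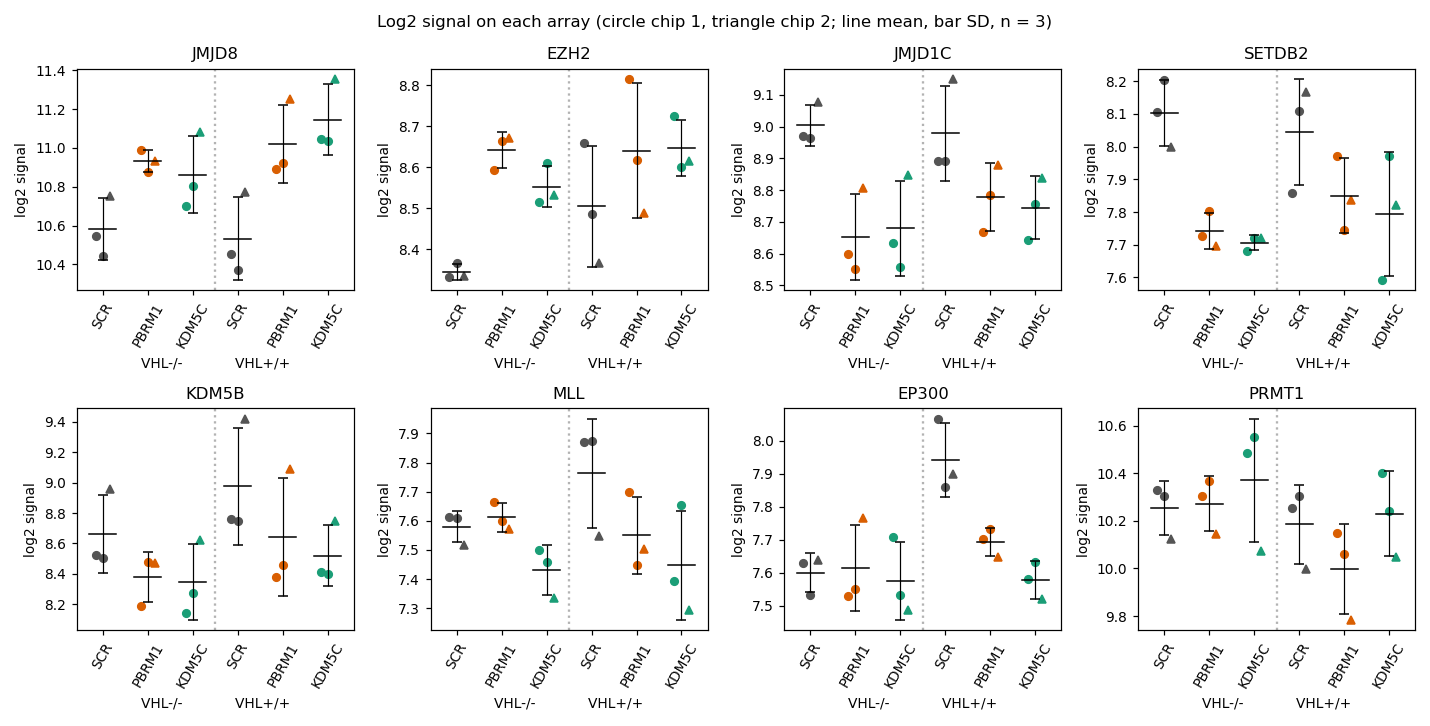
Log2 signal on each of the 18 arrays for the 8 members that passed in an shRNA or VHL comparison, with SCR, PBRM1 shRNA and KDM5C shRNA in VHL-/- (left of the dotted line) and VHL+/+ cells. Circles are chip 1 and triangles chip 2, lines are means and bars SD (n = 3). JMJD1C is lower and JMJD8 higher with the shRNAs in both backgrounds, and the offset of triangles from circles is the chip difference.

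The remaining erasers and writers did not pass with either shRNA. HDAC3, the deacetylase of the NCoR and SMRT corepressors, had log2 fold changes of opposite sign in the backgrounds and was singled out after its values were seen. It read 9.13, 9.39 and 9.32 with SCR, 9.42, 9.62 and 9.42 with PBRM1 shRNA and 9.35, 9.94 and 9.70 with KDM5C shRNA in VHL-/- cells. In VHL+/+ cells the readings were 9.62, 9.68 and 9.61 with SCR, 9.12, 9.47 and 9.30 with PBRM1 shRNA and 9.39, 9.40 and 9.40 with KDM5C shRNA. The groups overlapped with KDM5C shRNA in VHL-/- cells and were apart in the other 3 comparisons. The log2 fold changes were 0.21 and 0.39 in VHL-/- and -0.34 and -0.24 in VHL+/+ cells, none of which passed (the lowest adjusted p was 0.0877 by limma). The effects differed between backgrounds by 0.55 (0.19 to 0.92) and 0.63 (0.26 to 1.00), and these differences missed the threshold over all genes (adjusted p = 1.00 and 0.374 by limma, unadjusted p = 0.00577 and 0.00233). Both differences used the same SCR arrays of the backgrounds and are not independent of each other. With SCR alone HDAC3 was 0.36 higher in VHL+/+ than in VHL-/- cells, the highest log2 fold change of the class there, which did not pass.

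Across the class no member passed the test of a different effect in the 2 backgrounds, with 0 of 13141 genes passing by limma for either shRNA. At unadjusted p under 0.05 there were 4 members for PBRM1 shRNA, beside 4.21% of all genes, and 3 for KDM5C shRNA, beside 7.72%. KDM5C shRNA against PBRM1 shRNA, which needs no SCR array, gave 0 members and 0 genes by limma in both backgrounds. Unadjusted, 2 members were under 0.05 in VHL-/- cells, beside 5.38% of all genes, and 1 in VHL+/+ cells, beside 4.15%. The median half-width of the single-gene 95% interval of a member was 0.18 for KDM5C shRNA against PBRM1 shRNA. It was 0.26 for a difference of effects between backgrounds. Differences larger than these could still miss the adjusted test.

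**Figure D5:**
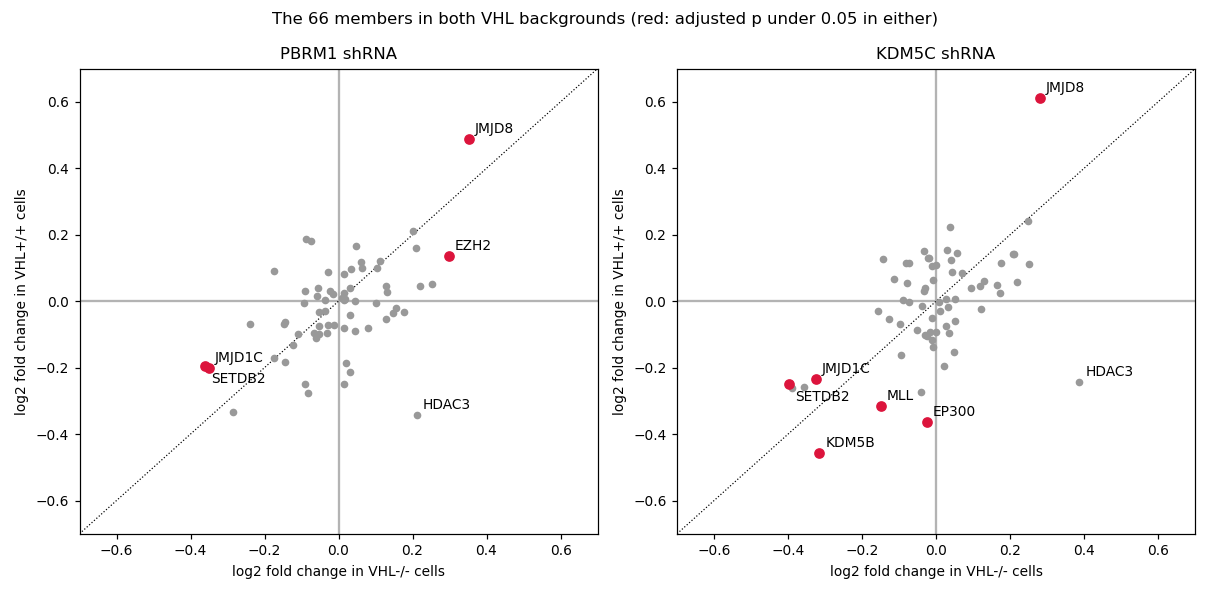
Log2 fold change against SCR in VHL-/- cells (horizontal) and VHL+/+ cells (vertical) for the 66 members, with PBRM1 shRNA on the left and KDM5C shRNA on the right. Red members passed in at least 1 background, the dotted line marks equal change, and HDAC3, which passed in neither, is named for its place at 0.39 and -0.24 with KDM5C shRNA.

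The deacetylase groups held no call with either shRNA. Class I deacetylases HDAC1, HDAC2, HDAC3 and HDAC8 ranged from -0.34 to 0.39 over the comparisons. The 7 class II and IV entries (HDAC4, HDAC5, HDAC6, HDAC7, HDAC7A, HDAC9 and HDAC11) ranged from -0.16 to 0.13, and the 2 entries of HDAC7 both lay near SCR. The 5 sirtuins, NAD-dependent deacylases, ranged from -0.27 to 0.16, with SIRT1 lowest with KDM5C shRNA in VHL+/+ cells. The 7 arginine methyltransferases ranged from -0.19 to 0.25.

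Writers of the other lysine marks and the remaining SET-domain proteins (DOT1L for H3K79, NSD1 and WHSC1 for H3K36, SETD8, SUV420H1 and SUV420H2 for H4K20, and SETD3, SETD4 and SETD6) ranged from -0.39 to 0.25 with no call. SETD8 had the widest interval of the class (log2 fold change -0.39, -0.77 to -0.01, with KDM5C shRNA in VHL-/- cells, adjusted p = 0.268 by limma), and its chips differed, at -0.59 within chip 1 and 0.02 on chip 2. The 4 MLL fusion partners ranged from -0.36 to 0.17 with no call. The dimmest 25% of the table held 16 members, JMJD2B, JMJD2C, KDM1B, KDM2B and SETD7 among them, where a difference is read close to background.

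Re-expression of VHL changed few members. Besides EP300 with SCR, PRMT1, the main writer of asymmetric dimethylarginine, was lower in VHL+/+ cells with PBRM1 shRNA, where 2.37% of all genes passed. It read 10.15, 10.06 and 9.78 in VHL+/+ and 10.30, 10.37 and 10.14 in VHL-/- cells with PBRM1 shRNA. Each VHL+/+ array was below the VHL-/- arrays of its chip, and across chips VHL+/+ replicate 1 lay just above VHL-/- replicate 3. PRMT1 fell by 0.27 (SE 0.07, 95% interval -0.42 to -0.13, adjusted p = 0.0466 by limma), by 0.23 within chip 1 and by 0.36 on chip 2. This call passed in 4 of the 18 fits that left out 1 array, namely those without VHL+/+ KDM5C shRNA replicate 1 or 2 or VHL-/- KDM5C shRNA replicate 2 or 3, with adjusted p up to 0.194 without each of the others. With KDM5C shRNA 0 members passed between the VHL backgrounds by limma, where 2.77% of all genes passed, and 3 were under 0.05 unadjusted.

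JMJD1A, JMJD2B and JMJD2C (KDM3A, KDM4B and KDM4C) are JmjC demethylases known to be induced by hypoxia-inducible factors in many cells. JMJD1A read 7.50, 8.03 and 7.75 in VHL-/- and 7.73, 7.75 and 7.85 in VHL+/+ cells with SCR, which overlapped. Its log2 fold change with VHL was 0.02 (-0.31 to 0.35) with SCR, -0.19 (-0.52 to 0.14) with PBRM1 shRNA and -0.13 (-0.46 to 0.20) with KDM5C shRNA. With PBRM1 shRNA the arrays read 7.85, 8.02 and 7.93 and 7.54, 7.79 and 7.91, and with KDM5C shRNA 8.12, 7.54 and 7.98 and 8.02, 7.66 and 7.59, in VHL-/- and VHL+/+ cells. All of these groups overlapped.

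JMJD2B read 6.85, 6.73 and 6.80 with SCR, 6.82, 6.81 and 6.84 with PBRM1 shRNA and 6.65, 6.67 and 6.84 with KDM5C shRNA in VHL-/- cells. In VHL+/+ cells it read 6.81, 6.67 and 6.85 with SCR, 6.77, 6.86 and 6.81 with PBRM1 shRNA and 6.86, 6.79 and 6.67 with KDM5C shRNA. All groups overlapped, and its log2 fold changes with VHL lay between -0.02 and 0.05. JMJD2C was at 6.75, 6.80 and 6.81 with SCR, 6.93, 6.86 and 6.70 with PBRM1 shRNA and 6.95, 6.76 and 6.69 with KDM5C shRNA in VHL-/- cells. The VHL+/+ arrays stood at 6.82, 6.77 and 6.82 with SCR, 6.91, 6.84 and 6.66 with PBRM1 shRNA and 6.76, 6.87 and 6.69 with KDM5C shRNA. It lay between -0.03 and 0.01 with VHL, and none of the hypoxia-induced demethylases passed. JMJD2B and JMJD2C read close to background, with mean signals of 6.78 and 6.80 over all arrays. Their small differences therefore cannot show whether they respond to VHL. The intervals of JMJD1A given above included both falls and rises. KDM5B was 0.31 higher in VHL+/+ cells with SCR (0.10 to 0.53, adjusted p = 0.118 by limma), which also did not pass.

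Partners of these enzymes in their complexes were counted in the same fits, with the shares of all genes as given above. Of 20 measured subunits of HDAC corepressor complexes, TBL1X, a WD-repeat subunit of the NCoR and SMRT complexes that hold HDAC3, rose in all 4 shRNA comparisons, by 0.40 and 0.32 with PBRM1 shRNA and by 0.39 and 0.48 with KDM5C shRNA in VHL-/- and VHL+/+ cells (adjusted p = 0.00630, 0.0372, 0.00766 and 0.00269 by limma). Its paralog TBL1XR1 rose by 0.69 with KDM5C shRNA in VHL-/- cells (adjusted p = 0.00520 by limma), and the other subunits did not pass with an shRNA. The median of the 20 lay between 0.00 and 0.06. Within chip 1 and on chip 2 the rises of TBL1X were 0.37 and 0.44, 0.32 and 0.32, 0.42 and 0.32, and 0.47 and 0.48 in the order given, and those of TBL1XR1 were 0.68 and 0.72. Without the chip term TBL1XR1 passed, and TBL1X passed with KDM5C shRNA in VHL+/+ cells alone (adjusted p = 0.0341 and 0.0438 by limma). TBL1X in VHL+/+ cells with PBRM1 shRNA was lost in 8 of the 18 fits that left out 1 array (VHL+/+ SCR replicates 1 and 3, all VHL+/+ PBRM1 shRNA arrays, VHL-/- SCR replicates 1 and 2 and VHL-/- PBRM1 shRNA replicate 1).

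Of 9 measured partners of Polycomb repressive complex 2, JARID2, which helps recruit it, rose by 0.38 with PBRM1 shRNA in VHL-/- cells (adjusted p = 0.0332 by limma), by 0.35 within chip 1 and by 0.46 on chip 2. RBBP4, a histone chaperone shared with HDAC complexes, rose by 0.42 with PBRM1 shRNA in VHL+/+ cells and by 0.41 with KDM5C shRNA in VHL-/- cells (adjusted p = 0.0455 and 0.0345 by limma). The rises of RBBP4 were 0.37 and 0.35 within chip 1 and 0.53 and 0.53 on chip 2, and its signal was 0.52 higher on chip 2 than on chip 1. Without the chip term neither passed (adjusted p = 0.587 and 0.534 by limma), nor did JARID2 (adjusted p = 0.0553), and the first RBBP4 call was also lost with the replicate block (adjusted p = 0.0573). The JARID2 call and the second RBBP4 call were each lost without any of the 6 arrays compared. The first RBBP4 call was lost in 13 of the 18 fits that left out 1 array, and passed without replicate 1 of either VHL+/+ shRNA group, VHL-/- PBRM1 shRNA replicate 1 or 3 or VHL-/- KDM5C shRNA replicate 3. The core subunit SUZ12 fell by 0.33 with VHL in KDM5C shRNA cells (adjusted p = 0.0450 by limma), by 0.34 within chip 1 and by 0.32 on chip 2. That call was lost without the chip term (adjusted p = 0.182), with the replicate block (adjusted p = 0.0504) and in 14 of the 18 fits, and passed without VHL+/+ SCR replicate 1 or 2 or VHL-/- PBRM1 shRNA replicate 2 or 3.

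Of 11 measured partners of the H3K4 methyltransferases, 0 passed with an shRNA by limma, and ASH2L, a core subunit of all MLL and SETD1 complexes, fell by 0.36 with VHL in SCR cells (adjusted p = 0.0270 by limma), by 0.33 within chip 1 and by 0.43 on chip 2. The ASH2L call was lost without the chip term (adjusted p = 0.0943) and without VHL+/+ SCR replicate 2 or 3 or any VHL-/- SCR array. Of 9 demethylase entries whose table symbol the rule does not take, FBXL10 is an older symbol of the member KDM2B. Among these entries UTX (KDM6A), which removes H3K27 methylation, fell in VHL-/- cells by 0.35 with PBRM1 shRNA and by 0.36 with KDM5C shRNA. Both falls passed (adjusted p = 0.0364 and 0.0323 by limma), and UTX did not pass in VHL+/+ cells. Within chip 1 and on chip 2 the log2 fold changes of UTX were -0.38 and -0.28 with PBRM1 shRNA and -0.43 and -0.22 with KDM5C shRNA. Both UTX calls were lost without the chip term (adjusted p = 0.0595 and 0.0548 by limma) and without any VHL-/- SCR array, the first also without VHL-/- PBRM1 shRNA replicate 2 or 3 and the second without VHL-/- KDM5C shRNA replicate 1 or 2, with adjusted p up to 0.192 and 0.124. No enzyme among 12 other acetyltransferases, 9 other methyltransferases and 9 deiminases and histone ubiquitin enzymes passed in any of the 7 comparisons.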

How the data were processed

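RNA of 18 samples of 786-O cells was hybridised to Illumina HumanHT-12 V4 arrays. The authors deposited log2 intensities per gene: per the methods and the submitters' processing notes (GenomeStudio and limma), they corrected the background to positive values, took log2, quantile-normalized, kept probes detected at 0.05 and averaged the probes of a gene. Per the methods, batch was a term of the authors' linear model and ComBat was applied to heatmap values. Whether a correction entered the deposited values is not given in the sources used here, and a chip difference passed the test in 23.8% of the genes (limma). The number of arrays limits the precision, and no depth applies. Groups came from the titles and chips from the labels.

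The whole table was fitted with limma 3.58.1 in R 4.3.3 with group and chip as terms (11 residual degrees of freedom), with Benjamini-Hochberg adjustment over all 13141 genes in each of 11 contrasts. A gene passed at adjusted p under 0.05. The fit was tested on simulated data. Of the 66 symbols, 52 equal a current RefSeq symbol, 13 a synonym of 1 gene and 1 (MLL4) a synonym of several. Values in every array are given for members that passed in an shRNA comparison, KDM5B, the MLL and SETD1 methyltransferases and the hypoxia-induced JmjC demethylases, and for HDAC3 by choice after its values were seen. Values in the text are log2 signals or log2 differences.

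Members, roles and the partner lists (H3K4 complex partners, Polycomb repressive complex 2 partners, HDAC corepressor subunits, and acetyltransferases, methyltransferases, demethylases, deiminases and ubiquitin enzymes outside the rule) were chosen with earlier results of these data known. A gene taken by the prefixes is not reported here. Alternatives were no chip term, the replicate number as a block, a 1.5-fold threshold, leaving out the dimmest 25% of genes, centring on the median, cyclic loess, a robust trended prior and leaving out each array. Promoter sequences are from RefSeq (GRCh38.p14).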

Additional observations from a re-analysis of the deposited data

How the results depend on the processing

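Of the 12 member calls against SCR, 4 passed in every fit that left out 1 array (JMJD8 with both shRNAs in VHL+/+ and JMJD1C with both in VHL-/- cells) and 2 passed without the chip term (JMJD8 and EP300 with KDM5C shRNA in VHL+/+ cells). Without the chip term 0, 0, 0 and 2 members passed for PBRM1 shRNA in VHL-/- and VHL+/+ cells and KDM5C shRNA in VHL-/- and VHL+/+ cells, and 0 and 0 for VHL with SCR and with PBRM1 shRNA. With a 1.5-fold threshold added the counts were 0, 0, 0, 1, 0 and 0 in the same order. Leaving out 1 array at a time gave 1 to 4, 1 to 2, 1 to 4 and 1 to 5 members in the 4 shRNA comparisons, 0 to 2, 0 to 1 and 0 to 1 for VHL with SCR, PBRM1 shRNA and KDM5C shRNA, and 0 in the other contrasts. With VHL and PBRM1 shRNA, 0 passed with the dimmest 25% left out and 0 with a robust trended prior. No named value changed sign with a call, and 6361 of 6578 alternative values kept their side of the threshold. Most of these values belong to results without a call in the main fit, so this share says little about how stable the calls were. A change of sign where neither fit passed was not counted as a change. The cause of the changes of side was not tested beyond the fewer arrays in the fits that left one out. Cyclic loess and median centring moved the median of all genes by under 0.1.

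Same-numbered arrays correlated in their deviations from the group means at a median of 0.15, 0.28 and 0.52 for replicates 1, 2 and 3, but down to -0.17 for replicate 1, so the numbers were not taken as pairs. After the chip term 1 of 18 arrays correlated best with its own number. With the replicate block in place of the chip, 3 members passed for KDM5C shRNA in VHL+/+ cells (JMJD1C and MLL were lost, at adjusted p = 0.0548 and 0.0527 by limma), 3 for KDM5C shRNA in VHL-/- cells, 2 for VHL with SCR and 0 for VHL with PBRM1 shRNA, and the other counts were as reported.

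Array replicates number 3 a group, 16 members lie near background, and all results rest on 1 line and 1 shRNA sequence for each target.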
